A study of Mus musculus with 12 samples.

Results

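The interferon-inducible GTPases of mouse liver were followed through 10 genes, the guanylate-binding proteins Gbp2, Gbp3, Gbp4, Gbp6 and Gbp7 and the immunity-related GTPases Irgm1, Irgm2, Igtp, Iigp1 and Ifi47. They were taken as a list of gene symbols, with no threshold on a measured value, and mapped to the gene identifiers of the count tables. Each symbol matched 1 identifier, giving 10 of 47729 genes in the tables, and all 10 passed the filter on low counts that left 16823 genes for testing. The data are RNA-seq gene counts from whole liver of 12 mice, 4 in each of 3 groups. Healthy mice were C57BL/6 wild type given vehicle, without streptozotocin or high-fat diet. STAM-vehicle mice were C57BL/6 made diabetic with streptozotocin on day 2 of life and fed a high-fat diet from week 4, a model of non-alcoholic steatohepatitis, and given vehicle. STAM-I-BET151 mice had the same model and received 10 mg/kg of I-BET151, which blocks the bromodomains of the BET proteins that read acetylated chromatin. Dosing was oral and once daily from week 6 to week 9, when livers were taken, and the study describes the model in male mice. According to the study's methods the compound was suspended in a different liquid from the vehicle, so compound and formulation cannot be told apart, and healthy and STAM mice differ in both streptozotocin and diet.

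Interferon-gamma, released mainly by T cells, NK cells and innate lymphoid cells, signals through the receptor subunits Ifngr1 and Ifngr2 and the kinases Jak1 and Jak2. The DNA elements through which target genes respond are gamma-activated sites (GAS) and interferon-stimulated response elements (ISRE), and Irf1 binds the latter. The GTPases made in response protect cells against microbes that live in vacuoles. The guanylate-binding proteins (GBPs) coat and disrupt such vacuoles and help to start inflammasomes. Among the immunity-related GTPases (IRGs), Iigp1 is an effector that loads onto the vacuole, whereas Irgm1, Irgm2 and Igtp are regulators that sit on the cell's own membranes and keep the effectors inactive there.

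Most of the genes lie in clusters. In the GENCODE M21 annotation of GRCm38, Gbp7 (chr3:142530342-142550149), Gbp3 (chr3:142560026-142573209) and Gbp2 (chr3:142620602-142638008) lie on the plus strand of chromosome 3. Gbp4 (chr5:105115767-105139586) and Gbp6 (chr5:105270702-105293698) lie on the minus strand of chromosome 5. Chromosome 11 holds Irgm1 (chr11:48861968-48871683, minus strand), Ifi47 (chr11:49076587-49096974, plus strand), Igtp (chr11:58199556-58207591, plus strand) and Irgm2 (chr11:58199618-58222782, plus strand). The annotated spans of Igtp and Irgm2 overlap on the same strand. Of all 101-base stretches of exon, the length of a read, 64.4% in Gbp6 also occur in another gene, mostly Gm43302 (58.9%). The share was 9.98% for Gbp7, 5.06% for Igtp and 2.95% for Irgm2, the latter pair with each other, at most 1.6% for Gbp4, Gbp3 and Ifi47, and 0 for Gbp2, Irgm1 and Iigp1. Counts of Gbp6 in particular are therefore uncertain.

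The promoter stretches that hold an interferon element are shown because the genes are described together. RefSeq promoter windows (GRCm38.p6, 250 bases before to 49 after the start site, which is counted as 0) were held for 7 of the 10 genes, namely Gbp2, Gbp3, Gbp7, Irgm1, Irgm2, Igtp and Ifi47, and not used here for Gbp4, Gbp6 and Iigp1. The ISRE core GAAANNGAAA, searched on both strands, was found in 6 of the 7, compared with 3.43% of 32817 promoters. The GAS core TTCNNNGAA, which reads the same on both strands, was found in 3 of the 7 (Gbp7, Irgm2 and Igtp), compared with 8.29% of promoters. All 3 also held an ISRE core, a pairing present in 0.451% of promoters. These counts are of genes, whereas the shares are of windows. Gbp3 had a second window (chr3:142560106-142560405), which held neither core and is not printed. The stretches from 110 to 10 bases before the start site are given 5′ to 3′ on the gene's strand, with the matches in capitals, for Gbp2 (chr3:142620553-142620653, plus), Gbp3 (chr3:142559934-142560034, plus), Gbp7 (chr3:142530226-142530326, plus), Irgm1 (chr11:48871430-48871530, minus), Irgm2 (chr11:58214867-58214967, plus) and Igtp (chr11:58199446-58199546, plus).
Gbp2: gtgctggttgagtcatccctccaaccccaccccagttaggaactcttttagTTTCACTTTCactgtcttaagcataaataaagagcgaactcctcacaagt
Gbp3: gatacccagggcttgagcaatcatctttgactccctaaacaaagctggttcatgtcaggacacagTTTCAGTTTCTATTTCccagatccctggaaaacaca
Gbp7: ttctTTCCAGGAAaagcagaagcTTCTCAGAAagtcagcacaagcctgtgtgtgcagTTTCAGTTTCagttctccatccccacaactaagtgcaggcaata
Irgm1: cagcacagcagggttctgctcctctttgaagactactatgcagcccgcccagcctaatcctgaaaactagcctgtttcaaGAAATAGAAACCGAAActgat
Irgm2: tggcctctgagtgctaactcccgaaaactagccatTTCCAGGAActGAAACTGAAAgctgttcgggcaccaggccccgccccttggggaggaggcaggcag
Igtp: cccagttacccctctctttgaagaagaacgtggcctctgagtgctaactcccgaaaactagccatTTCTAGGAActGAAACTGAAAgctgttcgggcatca

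In Gbp2 the capitals mark a single ISRE core on the opposite strand. In Gbp3 and Irgm1 they mark 2 overlapping ISRE cores, which in Gbp3 lie on the opposite strand. In Irgm2 and Igtp a GAS core is followed after 2 bases by an ISRE core, and the longest run that these 2 stretches share is 38 bases. Gbp7 holds 2 GAS cores, 44 and 25 bases from its ISRE core. The 2 bases between the GAS and ISRE cores were also counted in Tgtp1 and Tgtp2, further IRG genes of chromosome 11. No match to either core was found in the Ifi47 window. A match is a run of letters and not a measured binding site.

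**Figure D1:**
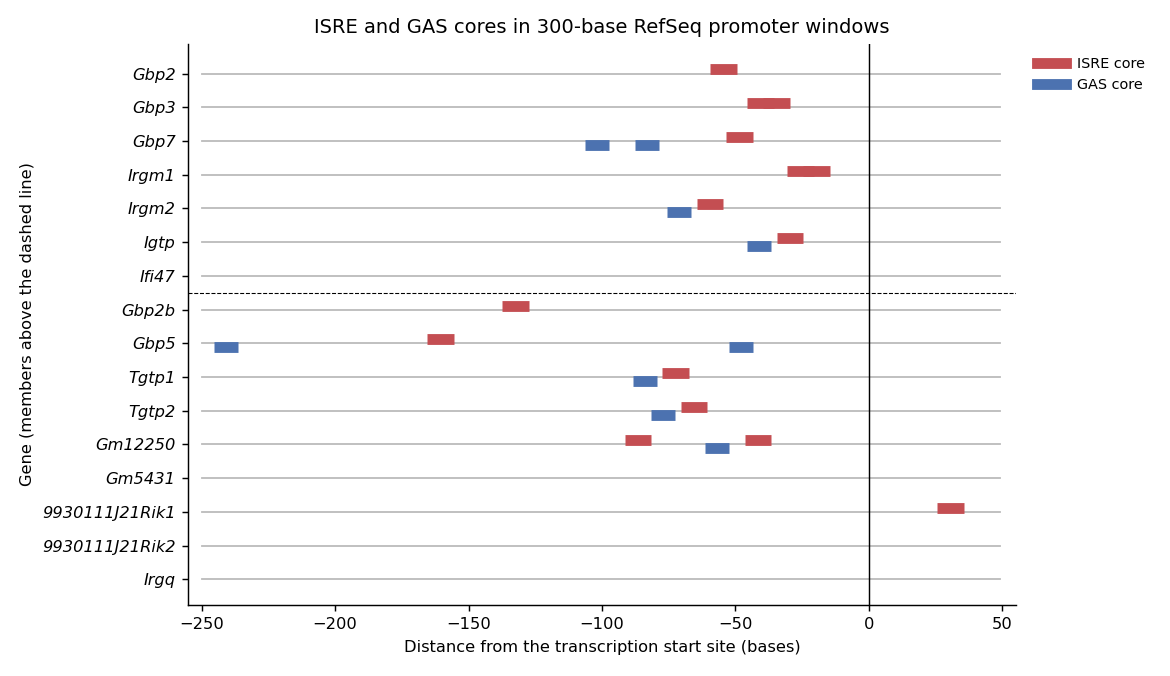
Positions of ISRE cores (red) and GAS cores (blue) along RefSeq promoter windows, in bases from the transcription start site (black line), for 7 of the 10 genes (above the dashed line) and 9 other GBP and IRG genes with a window (below it). In Irgm2, Igtp, Tgtp1 and Tgtp2 the blue and red boxes lie 2 bases apart, and Ifi47 has neither. The second Gbp3 window, which has neither core, is not drawn.

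Total counts per library were between 34711229 and 53365596. CPM are counts scaled to an equal library size after TMM normalization. The hepatocyte markers summed to 107537 to 126290 CPM in healthy, 56390 to 74352 CPM in STAM-vehicle and 21822 to 87641 CPM in STAM-I-BET151 livers. Healthy livers thus lay above all STAM livers, and the part of this difference in the GTPase values was not tested. The third STAM-I-BET151 mouse stood apart: its 10 most abundant genes held 7.95% of counts (13.45 to 18.05% elsewhere), TMM scaled it by 1.609 (0.7696 to 1.108 elsewhere) and its hepatocyte markers summed to 21822 CPM, compared with 72161 to 87641 CPM in the other STAM-I-BET151 mice. The study left out a STAM-I-BET151 library for low gene counts, and the sources used here do not name it. The third STAM-I-BET151 mouse had the lowest total count of the 12 (34711229) but the most genes with a count (24304). It therefore cannot be told whether the library left out was that of this mouse. The fold changes of the 10 genes under I-BET151 are given with all 12 mice and again without it. Other values and the other lists are given with all 12 mice unless stated. Whole-liver counts cannot tell fewer cells of a type from less RNA per cell.

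Levels between genes were compared as mean CPM per kilobase of exon. In healthy liver, Iigp1 was the most abundant of the 10 (41.9 ± 10.9 CPM per kilobase, SD, n = 4), above every value of the next gene. Irgm2 (14 ± 2.7) and Igtp (12.9 ± 4.06) overlapped each other, and Irgm1 (8.82 ± 0.85) and Ifi47 (4.27 ± 0.449) followed without overlap. The GBPs were lowest, in the order Gbp2 (2.36 ± 0.504), Gbp3 (1.76 ± 0.676), Gbp7 (1.21 ± 0.671), Gbp6 (1.03 ± 0.436) and Gbp4 (0.793 ± 0.108), and each overlapped its neighbour. In STAM-vehicle liver, Gbp3 (4.62 ± 0.93) stood above Gbp2 (3.2 ± 0.79), with overlapping values. The order of the IRGs was the same in all 3 groups. In STAM-I-BET151 liver, Gbp3 (2.01 ± 0.705) and Gbp2 (1.73 ± 0.486) overlapped and Gbp6 (0.836 ± 0.374) was the lowest.

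The first comparison asks what the disease model did to these genes. Gbp3 was the only one of the 10 that rose in STAM-vehicle compared to healthy livers (edgeR quasi-likelihood test, adjusted p at most 0.05), and 9 of 10 fold changes were above 0. The share of all tested genes called higher was 5.72%, next to 1 of 10 here, and none of the 10 was called lower. The call on Gbp3 was lost with the sequencing lane as a covariate (log2 fold change 1.34, edgeR adjusted p = 0.282), a fit in which 37 of all tested genes were called. The median log2 fold change was 0.41 over the 10 genes, 0.59 over the GBPs and 0.25 over the IRGs, compared with 0.0089 over all tested genes. In 3 of the 10 genes, Gbp3, Gbp4 and Ifi47, every STAM-vehicle mouse was above every healthy mouse, which held for 14.2% of tested genes.

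The second comparison asks what I-BET151 did in the diseased liver. All 10 fold changes of STAM-I-BET151 against STAM-vehicle were below 0, with a median of -0.54 (0.024 over all tested genes), but none passed edgeR's test at an adjusted p of at most 0.1, at which 0.256% of tested genes were called lower. At an unadjusted p under 0.05 there were 5 of the 10, compared with 1460 of the 16823 tested genes in either direction. DESeq2 called 4 of the 10 lower (Gbp3, Gbp2, Gbp6 and Irgm1), compared with 0.588% of all genes with a count and 1.03% of those that passed the filter on low counts. It called 1 gene, Gbp3, higher in STAM-vehicle than in healthy livers, compared with 4.77% and 8.2% of the same genes. In 5 of the 10 genes, Gbp3, Gbp6, Gbp7, Irgm1 and Igtp, every STAM-I-BET151 mouse was below every STAM-vehicle mouse, which held for 2.63% of tested genes.

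Without the third STAM-I-BET151 mouse, edgeR called Gbp3, Gbp4 and Gbp6 lower under I-BET151, 3 of 10 where 1.46% of tested genes were called lower. In this fit 2 of the 10, Gbp3 and Gbp4, were called higher in STAM-vehicle than in healthy livers, compared with 12% of tested genes. Every remaining STAM-I-BET151 mouse was below every STAM-vehicle mouse in 6 of the 10 genes, Gbp4 being the addition, compared with 8.35% of tested genes. Iigp1 and Ifi47 then had fold changes just above 0 (0.13 and 0.033). The log2 fold change was -0.85 for Gbp2, -0.72 for Gbp7, -0.42 for Irgm1, -0.16 for Irgm2 and -0.66 for Igtp, none of them called. The 2 comparisons share the STAM-vehicle mice, so a high value there raises one fold change and lowers the other.

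**Figure D2:**
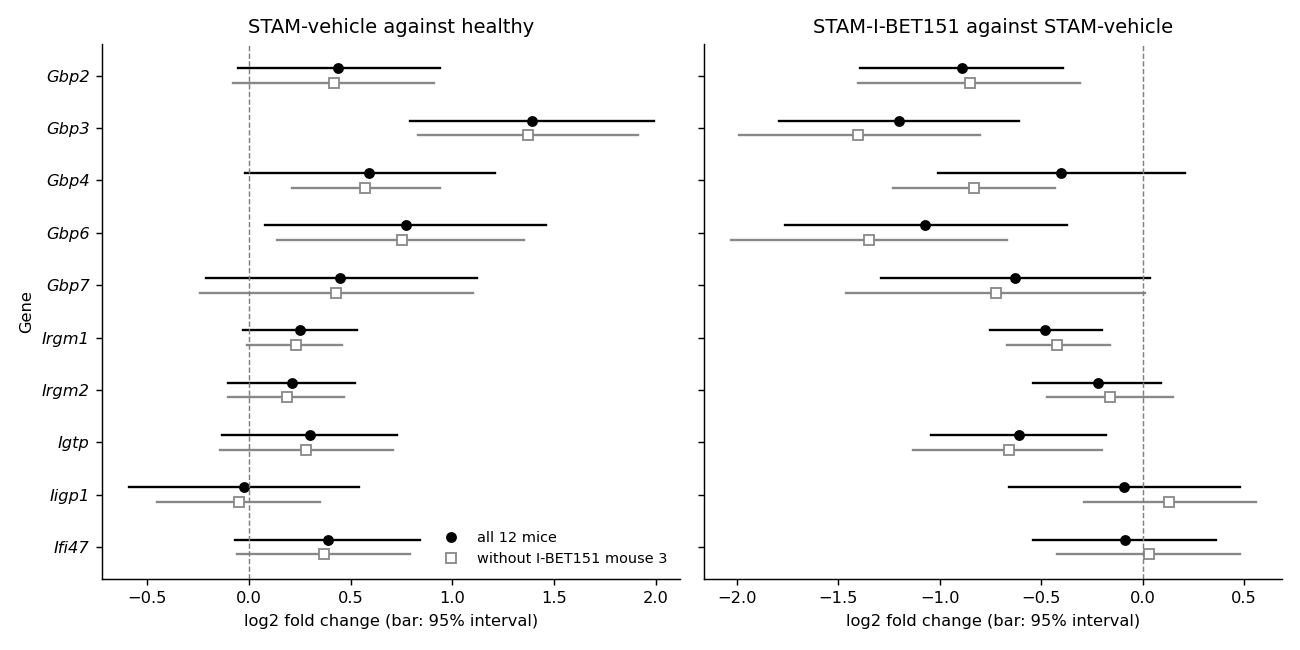
Log2 fold changes (horizontal axis) of the 10 genes with 95% intervals, for STAM-vehicle against healthy (left) and STAM-I-BET151 against STAM-vehicle (right), with all 12 mice (filled circles) and without the third STAM-I-BET151 mouse (open squares). Gbp3 lies furthest from 0 in both panels (1.39 and -1.20 with all mice), Iigp1 lies near 0 in both, and Gbp4 moves from -0.40 to -0.83 when that mouse is left out.

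Gbp3 had the widest range of the GBPs of chromosome 3. Its levels in mice 1 to 4 were 4.64, 9.06, 4.74 and 4.57 CPM in healthy, 13.2, 13, 19.5 and 14.6 CPM in STAM-vehicle and 7.71, 4.52, 9.23 and 4.76 CPM in STAM-I-BET151 livers. The STAM-vehicle group stood clear of both others, and the other groups overlapped. The log2 fold change was 1.39 (SE 0.28) for STAM-vehicle against healthy, 2.62-fold, with an edgeR adjusted p of 0.00919. For STAM-I-BET151 against STAM-vehicle it was -1.20 (SE 0.27; edgeR adjusted p = 0.135), and without the third STAM-I-BET151 mouse -1.40 (edgeR adjusted p = 0.0381). Mouse 2 gave the single high healthy value.

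Gbp2, which is recruited to vacuoles that hold microbes, was at 5.06, 7.81, 5.26 and 5.64 CPM in healthy, 5.82, 7.81, 10.7 and 7.96 CPM in STAM-vehicle and 6.05, 4.07, 4.11 and 3.15 CPM in STAM-I-BET151 livers. The groups overlapped in each comparison, through mouse 1 of both STAM groups and mouse 2 of the healthy group. Its log2 fold change was 0.44 (95% interval -0.054 to 0.94) in the disease comparison and -0.89 (-1.39 to -0.39) in the I-BET151 comparison, with an edgeR adjusted p of 0.196 for the latter and of 0.0303 by DESeq2. Gbp7, linked to assembly of the oxidase that phagocytes use against microbes, was at 3.38, 12.2, 6.19 and 5.46 CPM in healthy, 7.26, 8.82, 12.3 and 8.72 CPM in STAM-vehicle and 6.43, 4.73, 7.24 and 5.58 CPM in STAM-I-BET151 livers. Healthy mouse 2 reached the level of the highest STAM-vehicle mouse. The highest STAM-I-BET151 mouse lay just under the lowest STAM-vehicle mouse (log2 fold change -0.63, 95% interval -1.29 to 0.037).

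The GBPs of chromosome 5 differed in how far they rested on one mouse. Gbp6 was at 4.06, 9.83, 6.05 and 4.63 CPM in healthy, 12, 9.1, 11.8 and 9.02 CPM in STAM-vehicle and 5.53, 4.16, 7.75 and 2.48 CPM in STAM-I-BET151 livers. The log2 fold change of Gbp6 was 0.77 (edgeR adjusted p = 0.173) and then -1.07 (SE 0.32; edgeR adjusted p = 0.306), or -1.35 (edgeR adjusted p = 0.0681) without the third STAM-I-BET151 mouse. Gbp4 was at 5.79, 7.13, 5.32 and 5.55 CPM in healthy, 7.84, 8.42, 11.3 and 8.38 CPM in STAM-vehicle and 6.38, 4.61, 12.1 and 4.02 CPM in STAM-I-BET151 livers. The third STAM-I-BET151 mouse had the highest Gbp4 value of all 12, and the other 3 of its group lay below every STAM-vehicle mouse. With it the log2 fold change was -0.40 (edgeR adjusted p = 0.767) and without it -0.83 (edgeR adjusted p = 0.059). The disease comparison of Gbp4 gave 0.59 (edgeR adjusted p = 0.241) with all mice and 0.57 (edgeR adjusted p = 0.0296) in the fit without that mouse.

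**Figure D3:**
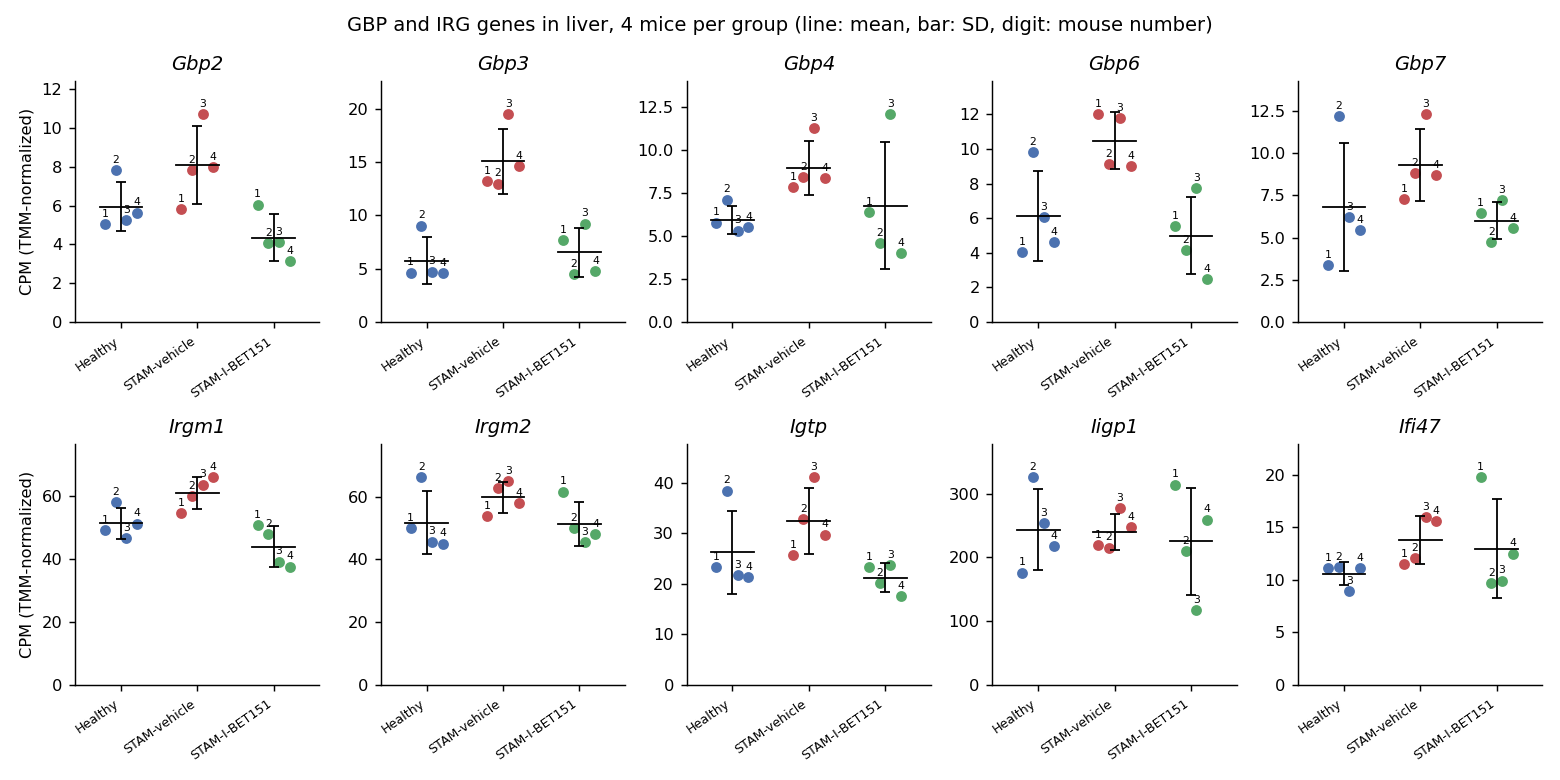
Level of each gene in CPM (vertical axis, from 0) in the 4 healthy (blue), 4 STAM-vehicle (red) and 4 STAM-I-BET151 (green) mice; digits are mouse numbers, lines are means and bars are SD. The STAM-vehicle mice of Gbp3 lie at 13 CPM or more and the other 8 mice at 9.23 CPM or less, whereas the groups of Iigp1 overlap throughout.

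Among the regulatory IRGs, Irgm1, which also acts in autophagy, was at 49.1, 58.1, 46.6 and 51.2 CPM in healthy, 54.5, 59.8, 63.6 and 66 CPM in STAM-vehicle and 50.8, 47.9, 39.1 and 37.5 CPM in STAM-I-BET151 livers. The STAM-I-BET151 mice all lay below the STAM-vehicle mice, and the healthy group overlapped both. Its log2 fold change under I-BET151 was -0.48 (SE 0.13; edgeR adjusted p = 0.224), with an adjusted p of 0.0747 by DESeq2. Igtp was at 23.3, 38.4, 21.7 and 21.3 CPM in healthy, 25.7, 32.7, 41.1 and 29.7 CPM in STAM-vehicle and 23.2, 20.1, 23.7 and 17.6 CPM in STAM-I-BET151 livers. It fell short of the threshold under I-BET151 (log2 fold change -0.61, SE 0.20; edgeR adjusted p = 0.363), although those 2 groups did not overlap. Irgm2, whose printed promoter stretch shares the GAS and ISRE pair with Igtp, was at 49.9, 66.3, 45.7 and 45 CPM in healthy, 53.8, 62.7, 65 and 57.9 CPM in STAM-vehicle and 61.6, 49.9, 45.5 and 48 CPM in STAM-I-BET151 livers. All 3 groups of Irgm2 overlapped, with log2 fold changes of 0.21 and then -0.22 (95% interval -0.54 to 0.091). The difference between Igtp and Irgm2 was not tested.

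The effector Iigp1 lay close to 0 in both comparisons. It was at 176, 326, 254 and 218 CPM in healthy, 219, 215, 277 and 247 CPM in STAM-vehicle and 314, 210, 117 and 259 CPM in STAM-I-BET151 livers. The log2 fold change of Iigp1 was -0.025 (95% interval -0.59 to 0.54) in the disease comparison and -0.089 (-0.66 to 0.48) under I-BET151. The lowest of its 12 values was in the third STAM-I-BET151 mouse, which also had the lowest hepatocyte marker sum, and the part of those markers in the value was not tested. Ifi47 was at 11.1, 11.2, 8.9 and 11.1 CPM in healthy, 11.5, 12.1, 16 and 15.6 CPM in STAM-vehicle and 19.8, 9.67, 9.93 and 12.5 CPM in STAM-I-BET151 livers. The STAM-vehicle mice of Ifi47 lay just above the healthy mice (log2 fold change 0.39, 95% interval -0.069 to 0.84), and the STAM-I-BET151 mice spread on both sides of them (-0.088, -0.54 to 0.36).

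Against healthy livers, STAM-I-BET151 livers gave no call among the 10 genes by edgeR, none at an unadjusted p under 0.05 and none by DESeq2, where edgeR called 9.88% of tested genes higher and 5.25% lower. An unadjusted p under 0.05 was reached by 5487 of the 16823 tested genes. Without the third STAM-I-BET151 mouse edgeR also called none of the 10, and 10.9% of tested genes higher and 9.53% lower. The median log2 fold change was -0.15, from -0.45 for Gbp2 to 0.30 for Ifi47. For Gbp3 it was 0.19 (95% interval -0.40 to 0.79), an interval that leaves room for a change of either sign. This comparison shares its mice with the other 2.

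Single mice moved many of the genes together. Healthy mouse 2 was the highest of its group in 10 of the 10 genes, a median of 0.58 (log2) above the mean of the other 3, where the median over all tested genes was 0.0037. Its excess was 0.96 over the GBPs and 0.50 over the IRGs. The antiviral genes induced by type I interferon summed to 339 CPM in it and to 259 to 260 CPM in the other healthy mice, while its T cell markers summed to 2.2 CPM (2.19 to 5.43 CPM in the others). The further targets of interferon-gamma described below summed to 326 CPM in healthy mouse 2, less than in the other healthy mice (337 to 393 CPM). STAM-vehicle mouse 3 was the highest of its group in 8 of the 10 genes. The third STAM-I-BET151 mouse was the highest of its group in 4 of the 5 GBPs, with a median excess of 0.74, but its median for the IRGs was -0.22. Irf1, a transcription factor that induces GBPs, was at 61.2 CPM in that mouse and at 30 to 37.3 CPM in the other 3. The part of Irf1 in the GBP values of this library, which stood apart as described above, was not tested.

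**Figure D4:**
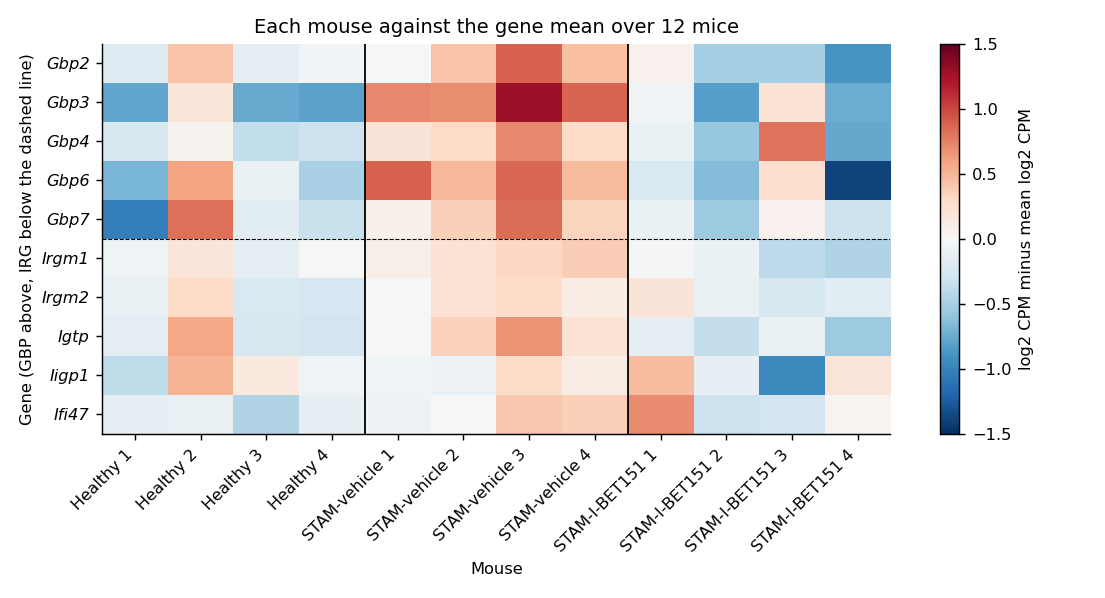
Log2 CPM of each gene (rows) in each mouse (columns) minus the gene's mean over the 12 mice; red is above and blue below that mean. Healthy mouse 2 and STAM-vehicle mouse 3 are red in most rows, and the third STAM-I-BET151 mouse is red for Gbp3, Gbp4 and Gbp6 but blue for the IRGs, most for Iigp1.

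Each gene was compared with the mean of the other 9 across the 12 mice, after standardizing log2 CPM. Pearson's r was between 0.796 and 0.915 for 7 of the genes, 0.604 for Gbp4, 0.499 for Ifi47 and 0.345 for Iigp1. Without the third STAM-I-BET151 mouse it was 0.914 for Gbp4 and 0.414 for Iigp1. The 8 other genes whose pattern was most like the mean of the 10 were Slfn5 (0.927), Parp14 (0.898), Slfn3 (0.895), Zfp683 (0.89), Herc6 (0.881), Ifi206 (0.879), Scimp (0.872) and Wdr75 (0.86). Over the 11 mice left without that mouse, Zfp683 (0.941), Slfn5 (0.933), Rtl5 (0.915), Parp14 (0.913), Ccnd2 (0.897), Slfn3 (0.886), Mitd1 (0.885) and Herc6 (0.884) led. These values describe the same libraries, which share their group and depth differences.

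The list of other GBP and IRG genes held 19 further genes, 18 of them tested. It also counts Gvin1 and Gm4070, very large interferon-inducible GTPases outside the 2 families, so its counts and medians describe the list. In STAM-vehicle livers 5 rose against healthy, with the largest called changes in Gm5431 (log2 fold change 1.78), Gbp11 (1.63), Gvin1 (1.63) and Gm4070 (1.49), and Tgtp1 as the fifth (0.70, edgeR adjusted p = 0.0087). Of the read-length stretches, 97.8% in Gvin1 and 95.6% in Gm4070 also occur in other genes, so their counts are uncertain. Under I-BET151 Tgtp1 fell by 0.95 on the log2 scale (edgeR adjusted p = 0.0193), the only one of the 18 that edgeR called with all mice, whereas DESeq2 called 5 of the 19 lower. Without the third STAM-I-BET151 mouse, edgeR called 9 of the 18 higher in STAM-vehicle than in healthy livers and 3 lower under I-BET151. Tgtp1 was at 7.65 to 7.87 CPM in healthy, 10.3 to 14.5 CPM in STAM-vehicle and 5.77 to 7.31 CPM in STAM-I-BET151 livers, so its STAM-vehicle mice stood clear of the others. It shares 73% of its read-length stretches, mainly with Tgtp2, whose log2 fold change was -0.85 (edgeR adjusted p = 0.135). The median of the 18 was 0.70 in the disease comparison and -0.87 under I-BET151. Against healthy livers, edgeR with all mice called Gbp11 higher in STAM-I-BET151 livers (1.47, edgeR adjusted p = 0.018), and without the third mouse it called 2 of the 18 higher and 1 lower.

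The list of the ligand and its signal chain held 16 genes, 15 of them tested. Ifng itself had 0 to 7 reads per library and was not tested. Ifngr1 had a log2 fold change of 0.41 (edgeR adjusted p = 0.12) in the disease comparison, and Ifngr2, Jak1 and Jak2 lay between -0.16 and 0.01. Of 15 tested genes of the receptor and signal list, 1, Irf8, rose in STAM-vehicle livers (0.67, edgeR adjusted p = 0.0444), next to 5.72% of all tested genes. None was called under I-BET151 by edgeR, with 2 at an unadjusted p under 0.05 and 1 called by DESeq2. Of all 16823 tested genes, edgeR called 0.256% lower, and 1460 had an unadjusted p under 0.05. Without the third STAM-I-BET151 mouse, edgeR called 2 of the 15 higher in STAM-vehicle than in healthy livers and 2 lower under I-BET151. The shares of all tested genes in that fit were 12% and 1.46%. Irf1 had a log2 fold change of 0.15 and then -0.029. Socs3, a feedback inhibitor of cytokine signals, was called higher in STAM-I-BET151 than in healthy livers (1.20, edgeR adjusted p = 0.00902).

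Of 21 tested further targets of interferon-gamma, 7 rose in STAM-vehicle livers. They included the T cell chemokines Cxcl10 (1.42) and Cxcl9 (1.04), the checkpoint ligand Cd274 (1.39) and the protease inhibitor Serpina3g (0.93). With all mice, Cxcl9 was the single one that edgeR called lower under I-BET151 (log2 fold change -1.46, edgeR adjusted p = 0.0528), from 7.6 to 11.6 CPM in STAM-vehicle to 1.84 to 4.82 CPM in STAM-I-BET151 livers, and DESeq2 called 3 of the 23 lower. Without the third STAM-I-BET151 mouse, edgeR called 12 of the 21 higher in STAM-vehicle livers and 5 lower under I-BET151. Ciita, which switches on class II antigen presentation, had 0.94 (edgeR adjusted p = 0.0869) and then -0.24. Against healthy livers 5 of the 21 were higher in STAM-I-BET151 livers, led by Cd274 (1.12). Of 25 antiviral genes that type I interferon induces, 18 rose in STAM-vehicle livers, led by Oas3 (2.64), Oas1a (2.33), Oas2 (2.30) and Ifi44 (1.90), and 8 fell under I-BET151, led by Ifit1 (-1.47), Ifit3b (-1.14), Usp18 (-1.13) and Isg15 (-1.12). Their medians were 1.15 and -0.83. The number that fell under I-BET151 was 14 by DESeq2 and 19 by edgeR without the third STAM-I-BET151 mouse. Of these 25, 3 stayed called higher against healthy in STAM-I-BET151 livers (Oas1a, Oas2 and Oas3) and Cmpk2 was called lower (-0.60).

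**Figure D5:**
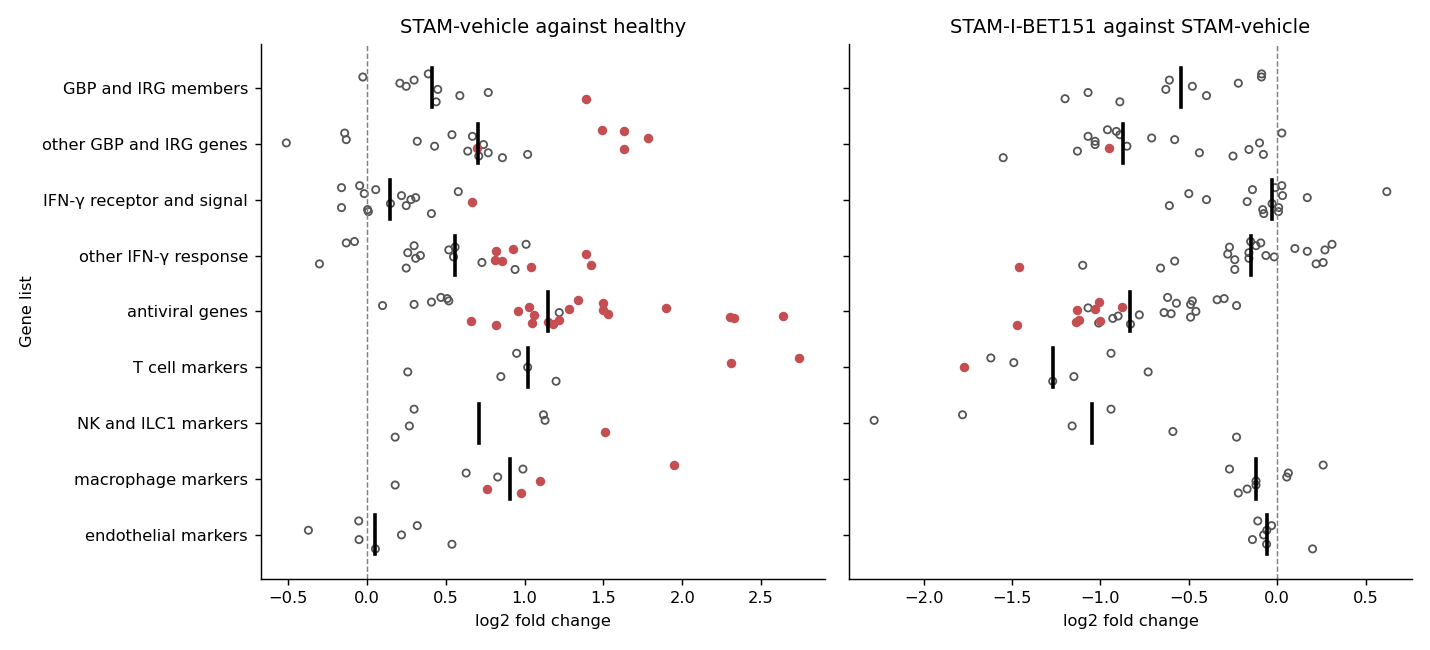
Log2 fold changes of the tested genes of each list (points; filled red where called by edgeR, open where not) with the list's median (black line), for STAM-vehicle against healthy (left) and STAM-I-BET151 against STAM-vehicle (right). The antiviral genes hold 18 red points on the left and 8 on the right, whereas the 10 GBP and IRG genes hold 1 and none, and the macrophage markers lie near 0 on the right.

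Of 17 genes that work with these GTPases in autophagy and inflammasomes, Nlrp3 (1.18) and Aim2 (1.15), both inflammasome sensors, rose in STAM-vehicle livers. With all mice, none of the 17 was called under I-BET151 by edgeR or DESeq2, and none had an unadjusted p under 0.05. Without the third STAM-I-BET151 mouse, edgeR also called none under I-BET151, with 2 at an unadjusted p under 0.05. The latter held for 2993 of 16967 tested genes in this fit. That fit called 2 of the 17 higher and 2 lower in STAM-vehicle than in healthy livers.

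All tested T cell, NK and ILC1 markers had fold changes above 0 in the disease comparison and below 0 under I-BET151. The 7 T cell markers summed to 2.19 to 5.43 CPM in healthy, 5.81 to 8.08 CPM in STAM-vehicle and 2.11 to 3.33 CPM in STAM-I-BET151 livers, with Cd8b1 (2.74) and Cd8a (2.31) called higher in STAM-vehicle and Cd4 (-1.77) called lower under I-BET151. The 10 NK and ILC1 markers, 6 of them tested, summed to 1.92 to 2.83, 2.55 to 4.86 and 1.33 to 2.41 CPM, with Klrd1 called higher in STAM-vehicle livers. Under I-BET151, DESeq2 called 4 of the 7 T cell and 1 of the 10 NK and ILC1 markers lower. The share of all genes with a count that it called lower was 0.588%. Without the third STAM-I-BET151 mouse, edgeR called 1 of the 7 T cell markers lower and no NK or ILC1 marker. Of 8 macrophage markers 4 rose in STAM-vehicle livers (Marco, Cd68, Adgre1 and Clec4f) and none was called under I-BET151, with sums of 206 to 299, 345 to 649 and 262 to 594 CPM. The number that rose was 6 by DESeq2 and 7 by edgeR without the third STAM-I-BET151 mouse, and 3 of the 7 T cell markers rose in that fit. Endothelial markers gave no call with all mice, and 1 of the 7 was called higher in STAM-vehicle livers without the third STAM-I-BET151 mouse. They summed to 269 to 400, 296 to 369 and 283 to 372 CPM. No marker of these lists was at 0 in every library. The part of these cells in the GTPase values was not tested.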

How the data were processed

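Liver RNA from 12 mice was sequenced from stranded mRNA libraries with 101 bp paired reads. The authors aligned reads with STAR 2.5.1b to mm10 and deposited whole-number counts per gene, without normalization. The study's methods and the submitters' notes name HTSeq for counting. The strand setting and annotation release are not given in the sources used here, and symbols and positions were taken from GENCODE M21. Groups and replicate numbers came from the sample titles.

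Differences were tested with edgeR 4.0.16 (R 4.3.3): TMM normalization, filterByExpr (minimum count 10), 1 quasi-likelihood fit of all 3 groups, Benjamini-Hochberg adjustment over 16823 genes, and thresholds of 0.05, 0.1 (I-BET151 against vehicle) and 0.05. The SE is the log2 fold change divided by the square root of F. CPM use TMM-normalized library sizes, and log2 CPM a prior count of 2. Library totals of 34711229 to 53365596 set the counting error, and intervals and p-values cover the spread between mice. Alternatives were DESeq2 1.42.0, limma 3.58.1 (voom with sample weights), RLE, no filter, fits of 2 groups, a replicate block, the lane in the file names, each mouse left out and other thresholds. Replicate pairs differed beyond sampling noise (chi-square per degree of freedom at least 30.5). No protein sequences were used here, so the planned protein description was left out. Read-length overlaps and motifs were counted in Python 3.11.15.

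The members and all gene lists were chosen with earlier results of these data known. Named beside the 10 genes are Ifng, Ifngr1, Ifngr2, Jak1, Jak2, Irf1, Ciita and Cxcl9, and per list and comparison up to 4 called genes of largest change; other names, such as Tgtp2, were chosen after their values were seen. Some genes of the lists are not reported here.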

Additional observations from a re-analysis of the deposited data

Results flagged for a closer look

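In each group of 4 mice, the gap between the most extreme mouse and its nearest neighbour was set against the group's range (Dixon's ratio) and compared with its 95% critical value. Of 30 groups tested, 4 had such a mouse, and chance alone gives about 1 in 20. Gbp3 in healthy mouse 2 was at 9.06 CPM, with the other healthy mice at 4.57 to 4.74 CPM (ratio 0.963). Igtp in the same mouse was at 38.4 CPM, with the others at 21.3 to 23.3 CPM (0.883). Ifi47 in healthy mouse 3 was low, at 8.9 CPM against 11.1 to 11.2 CPM (0.951). Gbp4 in STAM-vehicle mouse 3 was at 11.3 CPM, with the others at 7.84 to 8.42 CPM (0.831).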

How the results depend on the processing

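Of 600 alternative values of the 10 genes' fold changes, 539 kept their direction and side of the threshold, 28 newly passed it, 1 no longer passed it and 32 changed sign. Under I-BET151 193 of 200 alternative values were below 0. The number of the 10 genes called in STAM-vehicle against healthy was 1 with all 12 mice, 4 with limma-voom (Gbp3, Gbp4, Gbp6 and Irgm1), 2 in the fit of 2 groups, 3 with DESeq2 without the third STAM-I-BET151 mouse, 0 with the lane as a covariate, where Gbp3 had a log2 fold change of 1.34 (adjusted p = 0.282), and 1 to 2 with each mouse left out. For I-BET151 against vehicle it was 0 with all mice, 4 with DESeq2, 6 with limma-voom and with DESeq2 without the third mouse (Gbp2, Gbp3, Gbp4, Gbp6, Irgm1 and Igtp), 1 (Gbp3) without the filter on low counts, and 0 to 3 with each mouse left out: 1 (Gbp3) without healthy mouse 2 and 3 without the third STAM-I-BET151 mouse. For I-BET151 against healthy it was 0 under every alternative run. Among all genes, those called higher in STAM-vehicle livers were 3175 with limma-voom, 2085 in the fit of 2 groups and 2337 with DESeq2 without the third mouse. The main fit called 963 of 16823 higher. Those called lower under I-BET151 were 685 with limma-voom and 651 with DESeq2 without the third mouse, compared with 43 in the main fit. The causes of these differences between settings were not tested. With the replicate number as a block, edgeR called 1, 0 and 0 of the 10 genes. Over all genes it called 742, 10 and 1573 in place of 1195, 59 and 2546. Same-numbered mice showed no shared deviation (mean correlation -0.0927, from -0.351 to 0.0933). These correlations cannot tell whether the numbers pair the mice, for example by cage or processing. The block changed no call among the 10 genes. Over all genes, the counts for the 3 comparisons were 1910, 268 and 3427 with DESeq2, 4369, 1287 and 4092 with DESeq2 without the third mouse, 1204, 101 and 2294 without the filter, 5672, 1205 and 4880 with limma-voom, 37, 0 and 85 with the lane, and 3879, 8 and 1262 in fits of 2 groups; with each mouse left out they were 546 to 3779, 13 to 403 and 1292 to 3731. The lowest of the first range was without healthy mouse 3 and without STAM-vehicle mouse 3, the highest of the first 2 ranges were without the third STAM-I-BET151 mouse, and for I-BET151 against vehicle 13 was reached without STAM-vehicle mouse 4 and without STAM-I-BET151 mouse 1. Other thresholds gave 2052 (0.1), 26 (0.05) and 4162 (0.1). Fold changes of the other sign, all of them not called, were for STAM-vehicle against healthy Iigp1 0.45 with the lane; for I-BET151 against vehicle Iigp1 0.15 and Ifi47 0.053 with limma-voom, and Iigp1 0.14 and Ifi47 0.033 with DESeq2 without the third mouse; for I-BET151 against healthy Gbp4 -0.21, Irgm2 0.072 and Iigp1 0.11 with limma-voom, Gbp4 -0.21, Gbp7 0.33, Irgm2 0.056 and Iigp1 0.21 with the lane, Irgm2 0.0047 in the fit of 2 groups, and Gbp3 -0.023, Gbp4 -0.25, Irgm2 0.035 and Iigp1 0.095 with DESeq2 without the third mouse. With each mouse left out, Iigp1 ranged from -0.15 to 0.14 in the disease comparison, Iigp1 from -0.29 to 0.13 and Ifi47 from -0.37 to 0.033 under I-BET151, and against healthy Gbp3 from -0.028 to 0.49, Gbp4 from -0.26 to 0.37, Gbp6 from -0.61 to 0.017, Gbp7 from -0.40 to 0.26, Irgm2 from -0.12 to 0.12 and Iigp1 from -0.32 to 0.085. Within the 3 lanes that held 1 mouse of each STAM group, the I-BET151 mouse was lower in 9, 6 and 9 of the 10 genes, with Gbp3 lower in each (-1.61, -0.78 and -1.08), a comparison of single mice with no test. At these depths the GBPs had 108 to 1009 reads per library, and Ifng at most 7.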
